A study of Oryza sativa with 36 samples.

Results

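The drought response of young panicles was described for DOURADOAGULHA, an *indica* rice variety that the study classed as drought tolerant. Its 6 arrays, 3 drought-stressed and 3 well watered, were taken by their labels out of 36 arrays of 6 rice (*Oryza sativa*) varieties, and no measured value entered that choice. Drought was imposed by removing the water from late tillering onwards, and the well watered controls of each variety shared the growing site. RNA of young panicles 2 cm long, at the stage when pollen mother cells form, was measured on the Affymetrix Rice Genome Array. The panicle was taken whole, so each value averages over all of its cell types. The other 5 varieties, which received both treatments with 3 arrays each, were the *indica* variety KHAUMEO and the *japonica* varieties MILT1444, EMATAYIN, HUHAN3 and NIPPONBARE. KHAUMEO and NIPPONBARE were classed as drought sensitive. The sources used here do not say how many plants were pooled for each array.

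Plants short of water make abscisic acid, a hormone whose receptors hold back PP2C phosphatases and so release SnRK2 kinases (SAPK in rice), which activate bZIP factors at genes for protective proteins. Best known among those proteins are the late embryogenesis abundant (LEA) proteins and dehydrins, small hydrophilic proteins that accumulate in drying seeds and in stressed leaves. In a young panicle these genes act beside the programmes that form branches, floral organs and meiotic cells, and water deficit at this stage is known to lower grain number.

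A probe set was called changed where limma's p, adjusted by Benjamini and Hochberg's method over 57194 probe sets, was 0.05 or lower and the mean of log2 intensity differed by at least 1 (2-fold). Changes are log2 differences of deposited intensities, drought-stressed minus well watered, and errors are standard errors (SE) of the fit with 3 arrays a group. Nothing in the labels ties an array to a plant or a plot, so the p-values measure the spread between arrays. That spread was pooled over the 12 groups of all 36 arrays, so an SE can be smaller than the printed values of a gene imply. With the 6 DOURADOAGULHA arrays fitted alone, 29 probe sets were called up and 8 down, against 132 and 48 in the pooled fit. An exact permutation test of 3 arrays against 3 could not go below a two-sided p of 0.1 for a single gene. The arrays had median intensities between 57.2 and 60.2. Every array resembled its own variety more than any other: after each probe set was centred on its mean over all 36 arrays, the mean correlation with the other arrays of DOURADOAGULHA was 0.785 to 0.861, against at most 0.421 with the arrays of any other variety. The genes that define floral organs marked the tissue as labelled. MADS1, a spikelet identity gene, read 6504, 7257 and 6965 in drought-stressed arrays and 6373, 6434 and 5951 in well watered arrays, and MADS16, a lodicule and stamen identity gene, lay between 5510 and 6484 in all 6 arrays.

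An array of each group stood apart from its partners. The correlation of drought-stressed replicate 1 with the other drought-stressed arrays was 0.976 to 0.984, while replicates 2 and 3 correlated at 0.993. Well watered replicate 3 correlated with the other well watered arrays at 0.973 to 0.977, while replicates 1 and 2 correlated at 0.991. The SD of the deviations from the group mean was 0.22 for drought-stressed replicate 1 and 0.25 for well watered replicate 3, against 0.12 to 0.18 for the other 4 arrays and 0.11 to 0.30 over all 36. Both arrays deviated in part in the same genes, with a correlation of 0.463 between their deviations, and genes for heat shock proteins were prominent among these. Changes were therefore also fitted without both arrays, an alternative chosen after seeing the data, and 38 of the 53 calls named here remained. The values of the other 15 without both arrays are given beside them.

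Drought-stressed panicles had 132 probe sets called up, which was 0.231% of all tested, and 48 called down, which was 0.0839%. The rises led with dehydrin genes, a nitrate reductase and several transcription factors, and the deepest falls were those of a non-coding RNA and of probe sets with little annotation. A copper chaperone and a copper transporter were also among the falls. Called rises ran from 1.0 to 2.92 and called falls from -1.0 to -4.13. The 3 drought-stressed arrays lay above the 3 well watered arrays in 130 of the 132 rises and below them in 47 of the 48 falls. Over all probe sets, 24.6% had the arrays of the groups apart in either direction. The calls were made from these same arrays, so their separation largely follows from the call rule and is no separate evidence. At the adjusted p alone, 1033 probe sets were higher (1.81%) and 697 lower (1.22%), so that most differences past the p threshold were under 2-fold. The median change of all probe sets was 0.01, with a median SE of 0.17. Without both arrays that stood apart, 309 probe sets were called up (0.54%) and 72 down (0.126%), and these held 86 of the 132 rises and 28 of the 48 falls. Leaving out a single array moved the count of rises to 343, 48 and 25 for drought-stressed replicates 1, 2 and 3 and to 71, 81 and 104 for well watered replicates 1, 2 and 3, and the count of falls to 138, 26 and 11 for drought-stressed and 22, 44 and 29 for well watered replicates. When every array was scaled to the actin gene ACT1, which itself had a change of -0.15, the median of all probe sets moved to 0.17 and the share of calls that were rises moved to 92.9%, against 73.3% as deposited. In bulk tissue fewer cells of a type and less RNA per cell cannot be told apart. Of the rises, 79 probe sets had a gene name or locus, for 78 genes, and of the falls 10 had one.

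**Figure D1:**
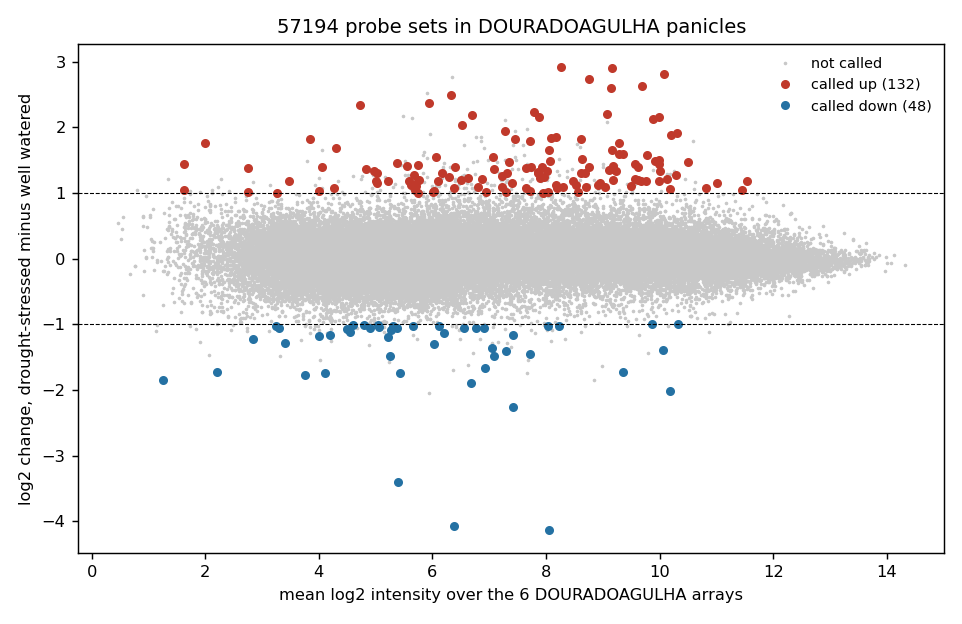
Log2 change (drought-stressed minus well watered, y axis) against the mean log2 intensity over the 6 arrays (x axis) for 57194 probe sets in DOURADOAGULHA panicles. Red points are the 132 called rises, blue points the 48 called falls and dashed lines a 2-fold change; the calls are spread over the whole range of intensity and the 3 deepest falls stand alone between -3.40 and -4.13.

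The largest named rises were dehydrins of the RAB16 family, whose transcripts are a standard marker of abscisic acid and water deficit in rice. RAB16B read 1683, 1306 and 1731 in drought-stressed arrays, against 221, 144 and 290 in well watered arrays, a change of 2.90 ± 0.67 (limma adjusted p = 0.019). RAB21 read 2890, 2859 and 2756 in drought-stressed arrays, against 355, 249 and 753 in well watered arrays (2.81 ± 0.69, limma adjusted p = 0.028), and its second probe set changed by 2.63. RAB16C read 1075, 958 and 1377 in drought-stressed arrays and 191, 169 and 146 in well watered arrays, a change of 2.74 ± 0.62. The drought-stressed arrays of RAB21 nearly coincided, and the spread came from the well watered side, where replicate 3 was the highest for RAB16B and RAB21 and the lowest for RAB16C. In the RefSeq order on chromosome 11 (assembly ASM3414082v1, used for names and neighbours only) RAB16B and RAB21 are next to each other, with 2 other genes between RAB16C and RAB16B. RAB16D, next to RAB16C on its other side, read 61.9, 60.9 and 66.8 in drought-stressed arrays and 48.6, 58.0 and 57.3 in well watered arrays, and its change of 0.21 did not pass (limma adjusted p = 0.28). A further gene described as dehydrin 9, LOC_Os11g26570, rose by 1.14 ± 0.20 (limma adjusted p = 0.0051), with all 6 arrays tightly grouped.

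Of the 9 genes of the LEA and dehydrin list, 4 were called up and none down, with a median change of 1.44 and all 9 changes above 0. RAB16B, RAB21 and RAB16C were the called dehydrins. The fourth called member was PM1, which is not itself a LEA protein or dehydrin. PM1 encodes a plasma membrane protein of the AWPM-19 family that carries abscisic acid into rice cells. It read 248, 163 and 158 in drought-stressed arrays and 34.7, 33.2 and 80.7 in well watered arrays (2.04 ± 0.58, limma adjusted p = 0.05). The dehydrin gene rab25 and the LEA gene LEA19 had changes of 1.44 and 1.16 that did not pass (limma adjusted p of 0.094 and 0.12). In both, well watered replicate 3 was the highest well watered array, at 583 for rab25 against 230 and 225 in replicates 1 and 2. Dhn1, another dehydrin, was bright in both groups, at 4077, 3332 and 3980 in drought-stressed and 4134, 3674 and 2832 in well watered arrays, and changed by 0.11. EM, a seed LEA gene, overlapped between the groups and had a change of 0.47. LOC_Os01g50910, described as a LEA repeat protein, rose by 2.16 ± 0.54, with 3097, 2189 and 1441 in drought-stressed arrays and 307, 417 and 862 in well watered arrays. Without both arrays that stood apart, RAB16B (3.08) and RAB21 (3.24) remained called, whereas RAB16C (2.68, limma adjusted p = 0.066), PM1 (2.24, limma adjusted p = 0.082) and LOC_Os01g50910 (2.31, limma adjusted p = 0.053) no longer passed.

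**Figure D2:**
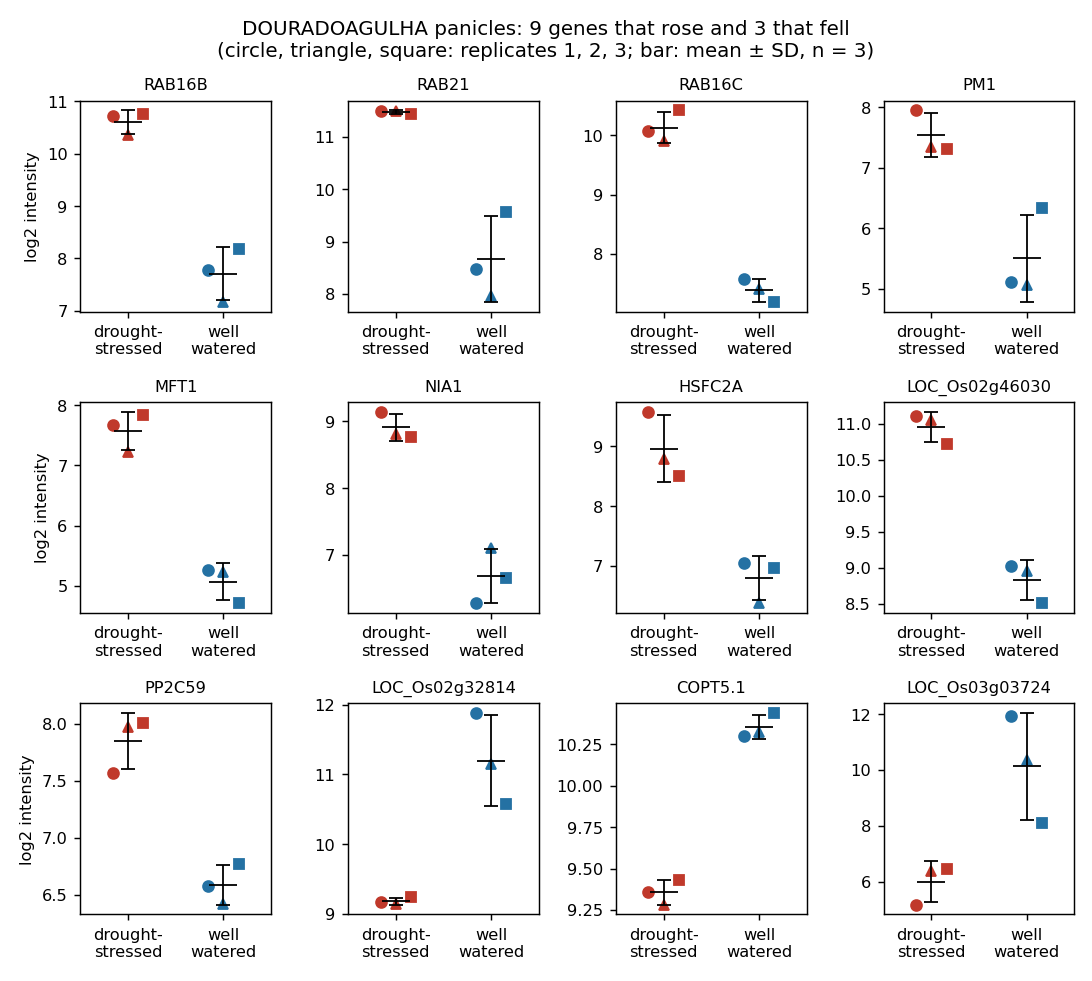
Log2 intensity (y axis) of 9 genes that rose and 3 that fell, in drought-stressed (red, left) and well watered (blue, right) DOURADOAGULHA panicles; symbols are replicates 1 to 3 and black bars the mean ± SD of the 3 arrays. In all 12 genes the arrays of the groups do not overlap, and well watered replicate 3 is the highest well watered array of RAB21 and PM1.

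Few genes of the other parts of the abscisic acid pathway were called. Of 56 PP2C phosphatase genes, 1 was called up and the median change was 0.07. PP2C59 read 190, 251 and 258 in drought-stressed arrays and 95.5, 85.4 and 109 in well watered arrays, a change of 1.26 ± 0.33 (limma adjusted p = 0.036). The next 3 in size, PP2C51 (1.0), PP2C08 (0.96) and PP2C09 (0.80), each had the 3 drought-stressed arrays above the 3 well watered ones and did not pass (limma adjusted p of 0.13, 0.067 and 0.066). All 10 SAPK kinase genes had a change above 0 and none reached 2-fold. SAPK1 passed the adjusted p alone, with 464, 461 and 448 in drought-stressed arrays and 296, 320 and 331 in well watered arrays (0.54 ± 0.11, limma adjusted p = 0.0086). The 5 genes matched by symbol to the list of abscisic acid synthesis, breakdown and receptors had a median change of 0.34 with none called. Among them the symbol aba1 stood for the probe set of the bZIP factor TRAB1 (0.35). ABA1 (0.18) and ZEP1 of the meiosis list were symbols of the same annotated gene, which was counted in both lists. ABA8OX2, whose enzyme breaks the hormone down, had a change of 0.53 (limma adjusted p = 0.24). None of 16 genes in the list of bZIP, NAC and DREB stress factors, which also held MYB genes and VP1, was called, with a median of 0.17. The largest change of that list was -1.23, for MYB4. DREB1A, a cold and drought factor, read 246, 269 and 168 in drought-stressed arrays and 98.2, 126 and 148 in well watered arrays, and its change of 0.87 carried an SE of 0.78. PP2C59 without both arrays that stood apart had a change of 1.5 (limma adjusted p = 0.051), so no PP2C gene was then called.

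Several transcription factor genes were among the largest rises. HSFC2A, a class C heat shock factor, read 765, 443 and 364 in drought-stressed arrays and 133, 82.9 and 125 in well watered arrays (2.16 ± 0.48, limma adjusted p = 0.017). A second gene described as a heat shock factor, LOC_Os06g35960, rose by 1.77 ± 0.35 and kept its call with each array left out in turn. LOC_Os02g46030, described as a MYB factor, read 2201, 2125 and 1682 in drought-stressed arrays and 521, 496 and 363 in well watered arrays, a change of 2.13 ± 0.40 (limma adjusted p = 0.0064). LOC_Os05g47650, described as a pathogenesis-related transcriptional factor and ERF domain protein, rose by 2.19 ± 0.61 at the edge of the threshold (limma adjusted p = 0.045). Among 49 homeobox genes 2 were called up and the median change was 0.04. They were WOX11, a regulator of crown root growth, with 106, 142 and 168 in drought-stressed arrays and 56.2, 67.3 and 36.4 in well watered arrays (1.40 ± 0.35), and the HD-Zip gene HOX15, with 241, 404 and 511 in drought-stressed arrays and 187, 149 and 114 in well watered arrays (1.32 ± 0.31). A related HD-Zip gene, hox14, had a change of 1.06 that just missed (limma adjusted p = 0.054). Without both arrays that stood apart, HSFC2A (1.94, limma adjusted p = 0.077), LOC_Os05g47650 (1.99, limma adjusted p = 0.15) and WOX11 (1.33, limma adjusted p = 0.083) no longer passed, and LOC_Os06g35960, LOC_Os02g46030 and HOX15 did.

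MFT1, a member of the protein family of the flowering signals Hd3a and TFL1, was the most strongly raised gene of the clock and heading-date list. It read 203, 150 and 229 in drought-stressed arrays and 38.5, 37.8 and 26.2 in well watered arrays, a change of 2.5 ± 0.42 (limma adjusted p = 0.0037) that stayed called with each array left out in turn and, at 2.28, without both arrays that stood apart. Of the 13 genes of that list it was the 1 called, and the median was 0.07. CCA1, the morning MYB factor of the circadian clock, passed the adjusted p alone with 5705, 5252 and 4400 in drought-stressed arrays and 3167, 2655 and 2543 in well watered arrays (0.87 ± 0.15, limma adjusted p = 0.0045). The heading-date genes Hd1 and PRR37 had changes of 0.63 and 0.59 that did not pass (limma adjusted p of 0.084 and 0.07). The sources used here do not state the time of day of sampling.

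Enzyme and carrier genes of nitrogen and sugar metabolism split between a single strong rise and many small differences. NIA1, a nitrate reductase and so the enzyme of the first step of nitrate assimilation, read 567, 450 and 437 in drought-stressed arrays and 78.0, 137 and 101 in well watered arrays (2.23 ± 0.32, limma adjusted p = 0.0011). It was the 1 called gene of 19 in nitrogen assimilation and transport, whose median was -0.05. The nitrate transporter NRT2.3 passed the adjusted p alone at 0.56. None of 31 genes for invertases, sucrose synthases and sugar transporters was called, although SUS3, a sucrose synthase, came within rounding of the fold threshold with 71.4, 68.7 and 76.1 in drought-stressed arrays and 173, 121 and 134 in well watered arrays (-0.97 ± 0.24, limma adjusted p = 0.028). SWEET12, of the sugar exporter family, stood at 41.7, 50.4 and 45.3 in drought-stressed arrays and 21.0, 26.2 and 23.5 in well watered arrays (0.96 ± 0.23, limma adjusted p = 0.024). SWEET15 had the largest change of the list, 1.83 ± 0.69, with 616, 287 and 200 in drought-stressed arrays and 88.1, 47.4 and 189 in well watered arrays, and did not pass (limma adjusted p = 0.14). Among 13 genes of osmolyte synthesis, TPP3, a trehalose-6-phosphate phosphatase gene, rose by 1.01 ± 0.26, while TPP1 had a change of -1.35 with an SE of 0.85. Without both arrays that stood apart, NIA1 (2.1) stayed called, SUS3 (-1.0) became called down, and TPP3 (0.74, limma adjusted p = 0.2) no longer passed.

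Wall, membrane and peroxisome genes also appeared among the rises. LOC_Os05g47730, described as a nonspecific lipid transfer protein, a class that carries lipids to the cuticle, read 1342, 779 and 1508 in drought-stressed arrays and 446, 259 and 138 in well watered arrays (2.21 ± 0.48). PMEI8, an inhibitor of the pectin methylesterases that modify wall pectin, rose by 1.88 ± 0.48, with 3117, 1714 and 2147 in drought-stressed arrays and 414, 502 and 1108 in well watered arrays. EXPB11, a beta-expansin of the kind that loosens cell walls, was the 1 called of 30 expansin and xyloglucan genes, with 976, 814 and 1008 in drought-stressed arrays and 632, 376 and 201 in well watered arrays (1.36 ± 0.32). The groups did not overlap in any of the 3 genes, and LOC_Os05g47730 and EXPB11 were lowest in well watered replicate 3. PEX11-1, which takes part in peroxisome division, rose by 1.18 ± 0.23, and Chib3H-a, a class III chitinase homologue, by 1.43 ± 0.39; these 2 genes and SAT1 (1.05 ± 0.25) were chosen for naming after their values were seen. When both arrays that stood apart were left out, LOC_Os05g47730 (1.67, limma adjusted p = 0.11) and EXPB11 (0.89, limma adjusted p = 0.18) no longer passed, and PMEI8 (2.07) did.

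Among genes known only by locus, LOC_Os07g32406 had the smallest adjusted p of all rises that the text names. It read 846, 968 and 1022 in drought-stressed arrays and 328, 348 and 386 in well watered arrays (1.42 ± 0.15, limma adjusted p = 9e-06). LOC_Os11g03300 rose by 2.60, LOC_Os01g47070 by 1.95, LOC_Os01g46600 by 1.92, LOC_Os05g01530 by 1.84, LOC_Os03g13870 and LOC_Os06g36560 by 1.83 each, and LOC_Os06g44190 by 1.59. A probe set without a gene name had the largest rise of all at 2.92, with 958, 462 and 1390 in drought-stressed arrays and 151, 88.7 and 107 in well watered arrays. Leaving out each array in turn kept 20 of the 132 rises called every time, 17 of them with a name. Besides MFT1, NIA1, LOC_Os02g46030, LOC_Os06g35960, LOC_Os11g26570 and LOC_Os07g32406, these included LOC_Os10g41550 (1.86), LOC_Os03g06850 (1.79), LOC_Os04g46880 (1.39, described as a major facilitator superfamily protein), LOC_Os10g09850 (1.37), LOC_Os01g19770 (1.30) and the cytochrome P450 gene LOC_Os10g05020 (1.20). All of these but LOC_Os10g05020 were chosen for naming after their values were seen, as were LOC_Os06g35960 and LOC_Os11g26570. When both arrays that stood apart were left out, LOC_Os01g47070 (1.39, limma adjusted p = 0.19) and LOC_Os06g44190 (1.64, limma adjusted p = 0.072) no longer passed.

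The falls were fewer and mostly without a gene name. LOC_Os02g32814, described as the copper chaperone homologue CCH, a protein that hands copper ions on within the cell, read 575, 562 and 602 in drought-stressed arrays and 3777, 2265 and 1519 in well watered arrays (-2.02 ± 0.25, limma adjusted p = 0.00026). COPT5.1, a copper transporter, read 656, 622 and 689 in drought-stressed arrays and 1264, 1284 and 1389 in well watered arrays (-1.0 ± 0.17, limma adjusted p = 0.0035). The drought-stressed arrays of both genes lay close together at the lower level. The other 22 genes of the list that holds COPT5.1 had no call, and the median of the 23 was -0.03. Most members of that list were genes of the YSL family of metal carriers, so its median says little about copper genes alone. The superoxide dismutase genes were counted with the antioxidant enzymes instead. IDI2, named after a barley gene induced by iron deficiency, fell by 1.02, with 63.4, 35.4 and 51.9 in drought-stressed arrays and 115, 85.2 and 99.2 in well watered arrays. LOC_Os04g31790 fell by 1.73, LOC_Os07g40900 by 1.67, LOC_Os10g05950 by 1.49, LOC_Os05g41250 by 1.13, LOC_Os01g39000 by 1.03 and LOC_Os05g48310 by 1.02. Without both arrays that stood apart, LOC_Os02g32814 had a change of -2.33, and COPT5.1 (-0.96, limma adjusted p = 0.017), LOC_Os05g41250 (-0.92, limma adjusted p = 0.015) and LOC_Os10g05950 (-1.46, limma adjusted p = 0.062) no longer passed both thresholds.

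The 3 deepest falls belonged to probe sets with little or no annotation, and well watered arrays differed far more among themselves than drought-stressed arrays. LOC_Os03g03724 read 35.9, 82.4 and 88.3 in drought-stressed arrays and 3888, 1294 and 277 in well watered arrays (-4.13 ± 0.58, limma adjusted p = 0.0011). LOC4331496, which RefSeq annotates as a long non-coding RNA on chromosome 3, read 15.2, 23.7 and 23.4 in drought-stressed arrays and 1422, 259 and 110 in well watered arrays (-4.08 ± 0.56), and a probe set without a gene read 16, 13.2 and 10.5 in drought-stressed arrays and 312, 106 and 79.0 in well watered arrays (-3.40 ± 0.44). In all 3, as in LOC_Os02g32814, well watered replicate 1 was the highest array and replicate 3 the lowest of its group, so that the array least unlike the drought-stressed ones was one that stood apart. These 3 and LOC_Os05g41250 were chosen for naming after their values were seen. Leaving out each array in turn kept 6 of the 48 falls called every time, among them these 3, LOC_Os02g32814 and LOC_Os05g41250.

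Across the 35 gene lists, which held 814 genes, 12 genes were called up and 1 down, and 26 lists had no called member. Over all probe sets 0.231% were called up and 0.0839% down, the shares to set beside the count of each list. The medians of 32 lists lay within 0.25 of 0, beside a median of 0.01 for all probe sets, and 11 list medians changed sign when arrays were scaled to ACT1. Apart from the LEA and dehydrin list, medians beyond that bound were 0.34 for abscisic acid synthesis, breakdown and receptors, a list that also held TRAB1, and 0.27 for gibberellin genes. With both arrays that stood apart left out, 5 list genes were called up and 2 down, the median of the gibberellin genes was 0.11, and the green tissue genes stood at 0.33. In the gibberellin list no gene was called. GA20OX3, which makes active gibberellin precursors, passed the adjusted p alone with 779, 913 and 853 in drought-stressed arrays and 567, 571 and 624 in well watered arrays (0.53 ± 0.09, limma adjusted p = 0.0035), as did ks1 (0.52) and, in the other direction, GID2 (-0.41), an F-box protein of gibberellin signalling. EUI1, whose enzyme deactivates gibberellin, had a change of 1.08 ± 0.42 that did not pass (limma adjusted p = 0.14). Of 25 aquaporin genes none was called, and PIP1-3 had the largest change, 1.26 ± 0.41, at low intensities of 35.5, 34.6 and 43.2 in drought-stressed and 15.8, 18.8 and 12.9 in well watered arrays. Of 53 auxin genes none was called, with GH3.1, an auxin-conjugating enzyme gene, at 1.22 ± 0.40 (limma adjusted p = 0.088), and of 17 jasmonate repressor genes none, with JAZ13 at -2.05 and an SE of 1.25.

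**Figure D3:**
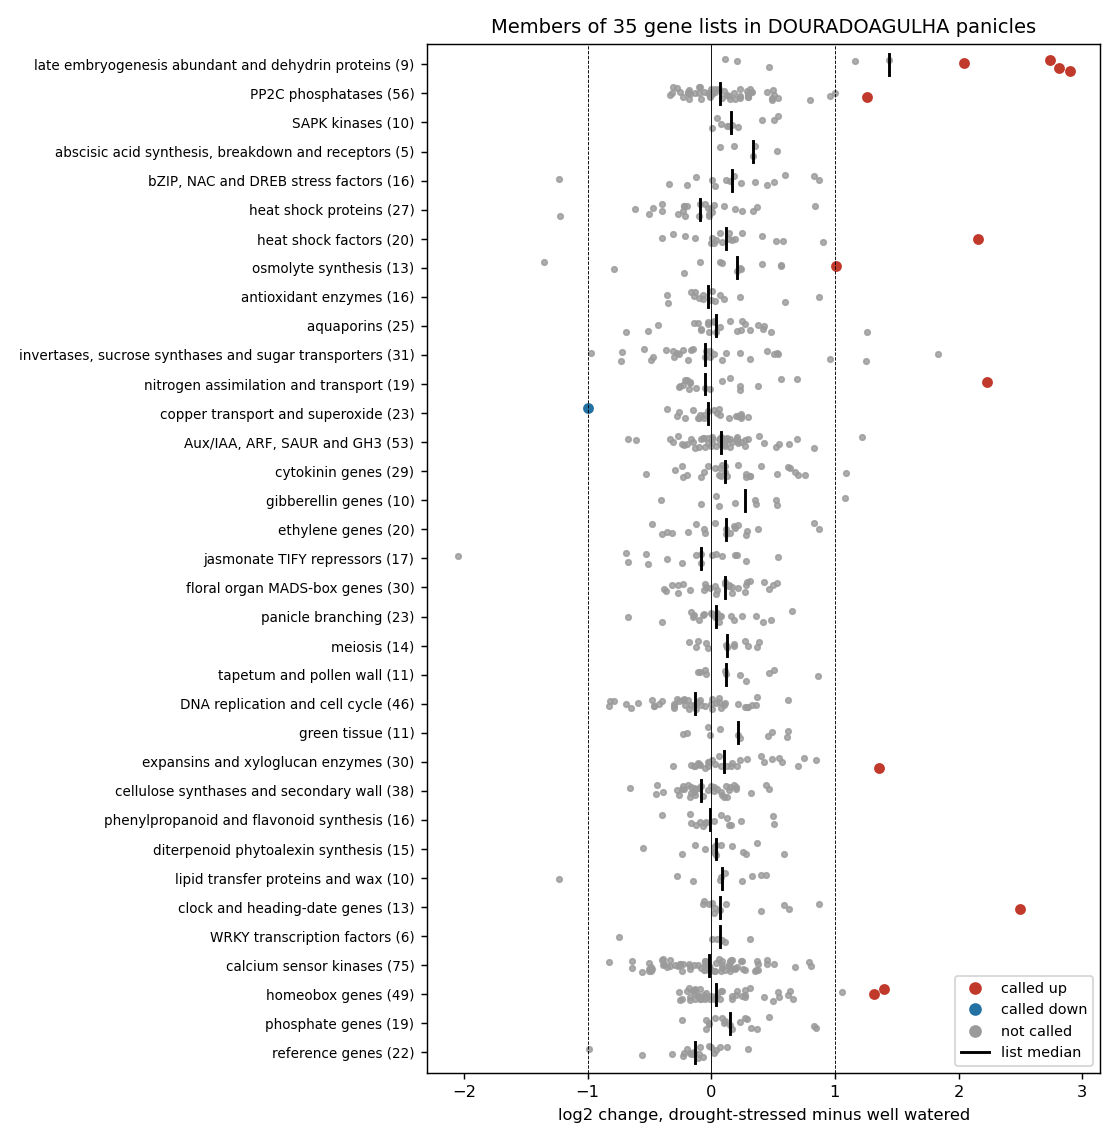
Log2 change (drought-stressed minus well watered, x axis) of each member of 35 gene lists in DOURADOAGULHA panicles, 1 point a gene, with the number of genes in brackets. Red and blue points are called genes, black bars list medians and dashed lines a 2-fold change; the median of the LEA and dehydrin list is 1.44, while 32 lists have medians within 0.25 of 0.

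Genes of panicle form had no call at 2-fold. None of 30 genes of the MADS-box list was called, with changes between -0.38 and 0.53, and none of 23 panicle branching genes, with changes between -0.67 and 0.65. The MADS-box list was matched by symbol and was not limited to floral organ genes. Its upper end was MADS26 (0.53), which the paper describes as a regulator of stress responses. FON1, a receptor kinase that limits the size of the floral meristem, passed the adjusted p alone, with 1272, 1443 and 1882 in drought-stressed arrays and 1075, 986 and 843 in well watered arrays (0.65 ± 0.18, limma adjusted p = 0.046). SPL9 did as well at 0.42. LAX1, needed to start side branches, read 141, 91.6 and 91.9 in drought-stressed arrays and 107, 153 and 289 in well watered arrays (-0.67 ± 0.42), with well watered replicate 3 the highest of the 6 arrays. APO2, the rice counterpart of LEAFY, spread from 786 to 2031 within the drought-stressed arrays and had a change of 0.01. Of the 14 genes of the meiosis list none was called, and the germline Argonaute gene MEL1 had a change of 0.39. ZEP1 of that list was a symbol of the same annotated gene as ABA1 of the abscisic acid list, so its place among meiosis genes rests on the symbol alone. The summed intensity of the 14 genes was 8621 to 9013 in drought-stressed and 8002 to 8220 in well watered arrays. Of 11 tapetum and pollen wall genes, which feed developing pollen, none was called, and their summed intensity was 4647 to 5394 in drought-stressed and 4451 to 5719 in well watered arrays. The 11 green tissue genes summed to 12878 to 17829 in drought-stressed and 11936 to 16588 in well watered arrays, so the groups overlapped. PSAG (0.62) and PPDKB (0.46) of that list passed the adjusted p alone, and their part in the other results was not tested.

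No replication or cell cycle gene was called, and the helicase subunits shared a direction. All 6 subunits of the MCM2 to MCM7 helicase, which opens DNA for replication, had a change below 0, between -0.40 and -0.82, with ACT1 scaling as well. MCM7 read 924, 717 and 542 in drought-stressed arrays and 1200, 1117 and 1488 in well watered arrays (-0.82 ± 0.24, limma adjusted p = 0.058). MCM4 was the 1 subunit that passed the adjusted p alone, with 2484, 1880 and 1534 in drought-stressed arrays and 2681, 2596 and 3489 in well watered arrays (-0.59 ± 0.17, limma adjusted p = 0.05). The arrays of the groups were apart for 3 of the 6 subunits. RPA70b (-0.83) and RPA32 (-0.79), which bind single-stranded DNA, and the origin subunit ORC3 (-0.69) had similar sizes and did not pass. PCNA, the sliding clamp of the polymerase, had a change of -0.30 and the mitotic kinase gene CDKB2-1 one of -0.26. The whole list of 46 replication and cell cycle genes had a median of -0.13, with 16 genes above 0, but the median was 0.02 when arrays were scaled to ACT1, and the 22 reference genes had the same medians of -0.13 and 0.02. Because drought-stressed replicate 1 was the highest drought-stressed array of MCM2 to MCM7 and well watered replicate 3 the highest well watered one, the values without both arrays were also taken, and ran from -0.37 for MCM6 to -0.89 for MCM7.

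Heat shock protein genes separated arrays rather than treatments. None of 27 was called, and the median change was -0.09, or 0.02 without both arrays that stood apart. The highest well watered array was replicate 3 for 24 of the 27, against 43.8% of all bright probe sets, and the highest drought-stressed array was replicate 1 for 22 of them, against 35%. Hsp101, the chaperone that dissolves protein aggregates, read 1663, 675 and 601 in drought-stressed arrays and 597, 549 and 2169 in well watered arrays (hsp101, change -0.03). HSP18.6, a small heat shock protein, read 4071, 1659 and 560 in drought-stressed arrays and 864, 941 and 4854 in well watered arrays, a change of -0.02 with an SE of 0.81. In HSP24.1 the drought-stressed arrays stood at 1187, 1041 and 595 and the well watered arrays at 777, 523 and 3196. The summed intensity of the 27 genes was 57476, 46881 and 41024 in drought-stressed and 45231, 45014 and 69695 in well watered arrays. Well watered replicate 3 was at least 2-fold above both its partners in 9 of the genes, and drought-stressed replicate 1 in 2. The heat shock factor gene HSFB2C followed the same arrays, at 628, 491 and 328 in drought-stressed and 385, 387 and 1050 in well watered arrays, unlike HSFC2A, whose 3 drought-stressed arrays all lay above the well watered ones. The sources used here do not state the temperature at sampling, and its part was not tested.

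**Figure D4:**
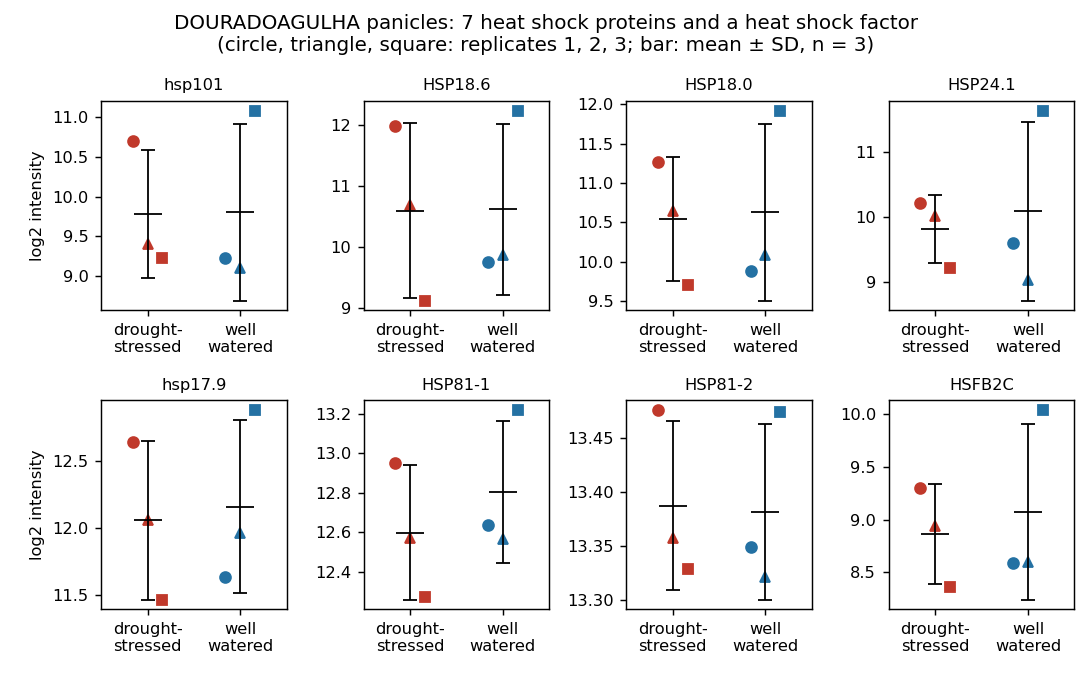
Log2 intensity (y axis) of 7 heat shock proteins and the heat shock factor HSFB2C in drought-stressed (red, left) and well watered (blue, right) DOURADOAGULHA panicles; symbols are replicates 1 to 3 and black bars the mean ± SD of the 3 arrays. In each panel the circle (replicate 1) is the highest drought-stressed array and the square (replicate 3) the highest well watered array.

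Most rises of DOURADOAGULHA pointed the same way in the other 5 varieties, which were measured on separate arrays. A mean change above 0 in the other 5 was found for 129 of the 132 rises, against 46.5% of all probe sets, and a mean change below 0 for all 48 falls, against 53.5%. A change above 0 in all 5 varieties at once was found for 110 of the rises, against 17% of all probe sets. For 38 of the falls the change was below 0 in all 5, against 20%. Of the probe sets called when both arrays that stood apart were left out, the same held for the mean in 299 of 309 rises and 69 of 72 falls. The rises had a median change of 1.31 in DOURADOAGULHA, from which they were chosen, and of 0.76 for the mean of the other 5, and the falls had -1.18 in DOURADOAGULHA and -0.65 in the others. Of the rises, 44 were also called up in KHAUMEO (33.3% of those of DOURADOAGULHA and 29.7% of those of KHAUMEO), 56 in HUHAN3 (42.4% and 17.7%), 46 in MILT1444 (34.8% and 13.1%), 41 in NIPPONBARE (31.1% and 13.1%) and 9 in EMATAYIN (6.82% and 31%). Called rises made up 0.259% of all probe sets in KHAUMEO, 0.554% in HUHAN3, 0.614% in MILT1444, 0.546% in NIPPONBARE and 0.0507% in EMATAYIN. Shared falls numbered 13 in KHAUMEO, 8 in HUHAN3, 9 in MILT1444, 7 in NIPPONBARE and 4 in EMATAYIN, where called falls were 0.0927%, 0.0699%, 0.0559%, 0.117% and 0.0122% of all probe sets in that order of varieties.

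Of the 132 rises, 4 were called up in all 5 other varieties, and 55 in none. The 4 rises shared with every variety were NIA1, LOC_Os01g50910, LOC_Os06g44190 and LOC_Os10g09850. RAB16B, with a change of 2.90 here, had changes of 2.38 to 4.81 in the other varieties and was called in 4 of them, as were RAB21 (2.91 to 4.98), RAB16C (1.72 to 3.22), PM1 (2.00 to 4.03), HSFC2A (1.64 to 3.21) and PP2C59 (1.17 to 1.66). The LEA and dehydrin list had a median of 1.44 in DOURADOAGULHA, against 1.78 in KHAUMEO and 1.16 to 3.22 over the other 5 varieties. Of the 48 falls, 4 were called down in all 5 others and 32 in none, and those 4 were LOC_Os02g32814, LOC_Os03g03724, LOC4331496 and the third of the deepest falls, which has no gene. LOC_Os02g32814 changed by -1.67 to -3.21 in the other varieties and LOC_Os03g03724 by -3.31 to -5.22. MCM2 to MCM7 were below 0 in every other variety as well, with -0.33 to -0.77 in KHAUMEO. A gene called in 1 variety and not in another is not thereby shown to differ, which the next comparison addressed.

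**Figure D5:**
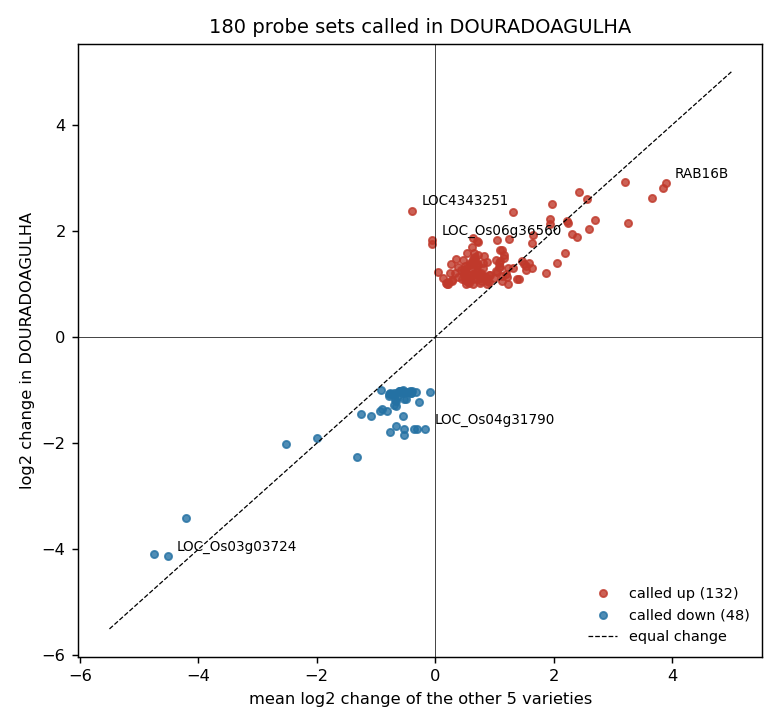
Log2 change in DOURADOAGULHA (y axis) against the mean log2 change of the other 5 varieties (x axis) for the 180 probe sets called in DOURADOAGULHA, rises in red and falls in blue. The dashed line marks equal change, and 129 of 132 rises and all 48 falls share the sign of the mean of the other varieties.

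Whether the response of DOURADOAGULHA differed from that of the other varieties was tested as a difference of changes in the same limma fit. No probe set was called against the mean of the other 5 (0%), and none against KHAUMEO (0%). At an unadjusted p of at most 0.05 with a 2-fold difference, 39 probe sets were higher and 53 lower than the mean of the other 5, and 141 higher and 72 lower than KHAUMEO. The median SE was 0.18 for the first difference and 0.23 for the second, larger than the 0.17 of the change itself.

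One probe set passed the adjusted p in both differences without reaching 2-fold. LOC4350860, a RefSeq protein-coding gene on chromosome 11 that has no other name, read 1355, 1223 and 1232 in drought-stressed arrays and 1912, 2055 and 2071 in well watered arrays, a change of -0.67 ± 0.07 (limma adjusted p = 9e-06). The 30 arrays of the other varieties, drought-stressed and well watered alike, lay between 1913 and 2503, and their changes between -0.12 and 0.00. The 3 drought-stressed DOURADOAGULHA arrays thus lay below all other 33 arrays of the study. The difference was -0.61 ± 0.08 from the mean of the other 5 (limma adjusted p = 0.00074) and -0.62 ± 0.10 from KHAUMEO (limma adjusted p = 0.047). Leaving out both arrays that stood apart gave a change of -0.69.

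The named genes with the smallest p in these differences are given as values, since none passed. LOC_Os07g32406 rose by 1.42 in DOURADOAGULHA and changed by 0.44 to 0.90 in the other varieties, a difference of 0.79 (limma adjusted p = 0.13). CYP734A6, a cytochrome P450 gene whose enzyme inactivates brassinosteroids, read 818, 1138 and 1281 in drought-stressed arrays and 484, 557 and 441 in well watered arrays (1.11 ± 0.21), against changes of -0.13 to 0.58 in the others (difference 0.98, limma adjusted p = 0.24). LOC_Os04g31790 read 571, 310 and 262 in drought-stressed arrays and 1007, 1638 and 1022 in well watered arrays, against changes of -1.06 to 0.29 in the others (difference -1.56, limma adjusted p = 0.14). LOC_Os06g36560 read 575, 552 and 1285 in drought-stressed arrays and 249, 166 and 218 in well watered arrays (1.83 ± 0.44), and its difference from KHAUMEO was 2.29 (limma adjusted p = 1.0). The sucrose transporter gene SUT5 had a change of 1.25 in DOURADOAGULHA, with 57.1, 139 and 170 in drought-stressed arrays and 61.7, 48.8 and 33.6 in well watered arrays, and changes of -0.70 to -0.02 in the other varieties (difference 1.57, limma adjusted p = 0.48). BGLU9, a beta-glucosidase gene, had a change of -0.13 in DOURADOAGULHA and of 0.54 to 1.31 in the others (difference -1.02, limma adjusted p = 0.24).

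One rise was present in 2 of the 3 drought-stressed arrays. LOC4343251, a RefSeq protein-coding gene on chromosome 7 that has no other name, read 24.8, 343 and 319 in drought-stressed arrays and 26.0, 30.4 and 24.5 in well watered arrays, and 17.1 to 38.9 in the 30 arrays of the other varieties. Drought-stressed replicate 1, an array that stood apart, was at the well watered level. The change was 2.38 ± 0.51 and the difference from the mean of the other 5 was 2.76 (limma adjusted p = 0.12), or 3.94 (limma adjusted p = 8.6e-10) without both arrays that stood apart. The setting without both arrays was chosen after seeing the data and leaves out the drought-stressed array without the rise. Its small p therefore does not show that the varieties differ. That setting called 7 probe sets in the difference from the mean of the other 5 and 4 in that from KHAUMEO. LOC4343251, LOC9269842 and LOC4327927 were in both, LOC9269842 at intensities of 7.33, 5.84 and 9.39 in drought-stressed and 1.47, 1.23 and 5.71 in well watered arrays, near the lowest value of the data. LOC4327927, a RefSeq gene on chromosome 1, went the other way, with differences of -1.08 from the mean of the other 5 and -1.06 from KHAUMEO in that setting (limma adjusted p of 2.3e-05 and 0.0014), and -0.82 and -0.80 with all arrays (limma adjusted p of 0.84 and 1.0). It read 374, 97.0 and 94.2 in drought-stressed arrays and 235, 193 and 484 in well watered arrays, where the arrays that stood apart were the highest of their groups, and 1296 to 3003 in the other varieties.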

How the data were processed

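Young panicle RNA of 36 arrays was hybridised to the Affymetrix Rice Genome Array. The authors summarised probe sets by Robust Multichip Average (RMA, affy package) and used limma; versions: not given in the sources used here. Values as deposited by the authors are linear intensity, 1.0 to 21698.89, with 109 values at 1.0; no detection calls were used here, so a dim probe set has no stated background.

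From these intensities log2 values of 57194 probe sets were fitted after 187 controls were left out, 1 mean per group of variety and treatment, 12 in all (limma 3.58.1, R 4.3.3, default eBayes, Benjamini-Hochberg), so that all arrays shared 1 estimate of the spread. Calls needed an adjusted p of at most 0.05 and a 2-fold difference, after the study's methods. Differences between varieties were interaction contrasts of the same fit. The fit was run on simulated data with known changes, where the noise of a probe set was independent and equally large in all arrays. Arrays that stand apart were not imitated there.

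Probe sets of a single gene (22436) were named by symbol, description or locus from the platform annotation and RefSeq (95 had several genes and 34663 none). Loci came from the supplementary table of changed genes, used only as a key: its 783 ratios of group means matched 776 probe sets uniquely, and 594 of 600 that could be compared lay on the RefSeq chromosome. That table lists only genes called changed by the authors, so names lean towards changed genes. Its fold ratios and p-values are not reported.

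The rule for names took the 20 largest rises and 15 largest falls with a name among probe sets that the platform annotation ties to a single gene, called list members, the 4 largest changes of a list and the 3 smallest p each way of the interaction contrasts; the text gives those that bear on its comparisons, and other genes were added after their values were seen. A list gene was represented by its brightest probe set. The lists and the rule were chosen with earlier results of these data known, and symbol patterns of the lists were corrected after the probe sets could be matched. Alternatives covered the variance model, array weights, dim probe sets, a replicate block, 2 scalings, an added value of 50, thresholds, the adjustment, 1 probe set a gene and left-out arrays. Promoter motifs were not analysed here.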

Additional observations from a re-analysis of the deposited data

Results flagged for a closer look

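LOC4350860 changed differently in DOURADOAGULHA than in the other varieties, by the test of the difference itself. Its change minus the mean change of the other 5 varieties was -0.61, and its change minus that of KHAUMEO was -0.62 (limma adjusted p of 0.00074 and 0.047). Neither reached 2-fold, and no other probe set passed either test.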

How the results depend on the processing

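With the arrays as deposited 132 probe sets were called up and 48 down. Counts moved to 414 and 118 with array weights, 328 and 25 with scaling to ACT1, 77 and 11 with 50 added before the logarithm, 29 and 8 with the DOURADOAGULHA arrays fitted alone, 304 and 94 at an unadjusted p, 1033 and 697 at the adjusted p alone, and 83 and 13 with 1 probe set a gene. Without the dim part of the array 27 falls were called, and without both arrays that stood apart 309 rises. Leaving out 1 array gave 25 to 343 rises and 11 to 138 falls.

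Whether replicate numbers paired the arrays could not be decided. The paper reports independent experiments under both conditions and does not say which arrays belong to the same experiment. Same-numbered arrays of both treatments had deviations correlated at -0.36, 0.35 and -0.38, which gave no common direction. Deviations from a group mean depend on each other, and both arrays that stood apart, which bear different numbers, had deviations correlated at 0.463. These correlations therefore cannot exclude pairing. With the replicate block 103 rises and 30 falls were called.

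For the difference from the mean of the other 5 varieties, 46 probe sets were called with array weights, 2 with bright probe sets only, 1 with quantile normalization, 1 with 50 added, 7 without both arrays, 0 to 15 with 1 array left out, 92 at an unadjusted p and 1 at the adjusted p alone. For the difference from KHAUMEO, 8 were called with array weights, 2 with 50 added, 4 without both arrays, 0 to 3 with 1 array left out, 213 at an unadjusted p and 1 at the adjusted p alone. The cause was not tested.

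No change of a named gene reversed. Of 53 named calls, 38 remained without both arrays and with 50 added, 41 with the replicate block, and 18 to 47 with 1 array left out. With the other variance model, array weights, bright probe sets only or either scaling, 45 to 52 remained. Named calls were not counted for the DOURADOAGULHA arrays fitted alone, where only 29 probe sets were called up and 8 down. Without both arrays 2 of the 4 called members of the LEA and dehydrin list, which includes PM1, stayed called. The number of arrays, 3 a group, limits the precision.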

Other observations

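A pair of probe sets without a gene name were high in a single array, drought-stressed replicate 3. The first read 8327 there, against 32.7 and 35.3 in drought-stressed replicates 1 and 2, 31.6, 30.8 and 30.9 in well watered arrays, and at most 36.2 in all 35 other arrays. The second read 1916 there, against 19.5 and 22.9 in drought-stressed replicates 1 and 2, 21.3, 22.8 and 19.0 in well watered arrays, and at most 25.6 in all 35 others. No other DOURADOAGULHA array held a probe set at least 8-fold above every other array. UBQ5, often used as a reference gene, read 1926, 1749 and 1405 in drought-stressed arrays and 3268, 3377 and 3351 in well watered arrays (-0.99 ± 0.15, limma adjusted p = 0.0019), just under the fold threshold, and had a change of -1.08 without both arrays that stood apart.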
